A study of Mus musculus with 6 samples.

Results

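The chemokine family of the mouse liver was followed here as 57 genes, 35 ligands and 22 receptors. They were chosen by symbol, as every gene named as a numbered CC, CXC, CX3C or XC chemokine (*Ccl*, *Cxcl*, *Cx3cl1*, *Xcl1*), a chemokine receptor (*Ccr*, *Cxcr*, *Cx3cr1*, *Xcr1*) or an atypical chemokine receptor (*Ackr*) with at least 1 count in any library, out of 49671 gene IDs in the table, 29420 of which had a count. *Ccl21a*, *Ccl21b* and *Ccl26* had the right kind of name but no count in any of the 6 libraries. Reads shared by near-identical genes were left out of the counts, so having no count need not mean no RNA. The libraries are whole-liver RNA-seq of male C57BL/6J mice put on the AMLN diet, a diet rich in cholesterol, fat and fructose that brings on fatty liver disease, at 4 weeks of age and kept on it for 18 weeks. The 3 SHMT2fl/fl mice (labelled WT) carried both floxed *Shmt2* alleles without Cre, and the 3 SHMT2HKO mice (labelled KO) carried the same floxed alleles with Albumin-Cre, which is active in hepatocytes. *Shmt2* encodes a mitochondrial enzyme that moves a carbon unit from serine to folate. The comparison asked how deletion of *Shmt2* in hepatocytes went with liver gene expression on this diet. Neither chow-fed mice nor Cre mice without floxed alleles were analysed here.

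Chemokines are small secreted proteins that guide cells along a concentration gradient through G protein-coupled receptors on the migrating cell, and each receptor reads its own set of ligands. A pair of them, CX3CL1 and CXCL16, are also made as membrane-anchored forms that can hold cells directly or be shed. In the liver, chemokines come from endothelial cells, stellate cells, bile duct cells, hepatocytes and resident macrophages, and the receptors sit mainly on leukocytes. Atypical receptors bind chemokines and remove them without G protein signalling.

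Library totals lay between 23090837 and 34089722 gene counts. Chemokine and receptor genes took 0.0873% to 0.101% of the counts in SHMT2fl/fl livers and 0.0405% to 0.0569% in SHMT2HKO livers. These shares are of unscaled counts. The factors of the TMM scaling used below were 1.13 to 1.21 in SHMT2fl/fl and 0.802 to 0.984 in SHMT2HKO libraries. The shares are therefore not on the scale of the levels and fold changes below. *Shmt2* was 99.2 ± 8.51 CPM (counts scaled to the library size with TMM factors, SD, n = 3) in SHMT2fl/fl and 24.2 ± 4.51 CPM in SHMT2HKO livers, with no overlap (log2 fold change -2.04, SE 0.16, adjusted p = 0.000639). Along the first principal component of all genes (69.7% of the variance) the genotypes separated. SHMT2HKO mouse 3 (23.3) lay nearer the SHMT2fl/fl mice (-47.0 to -37.9) there than SHMT2HKO mice 1 and 2 (53.1 and 47.1). Along the second component (15.7%) SHMT2HKO mouse 1 lay apart from SHMT2HKO mice 2 and 3. In these bulk samples, fewer cells of a type and less RNA per cell cannot be told apart.

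Every fold change below is SHMT2HKO over SHMT2fl/fl, and each adjusted p-value is from the quasi-likelihood test of edgeR with Benjamini-Hochberg adjustment over the 16089 genes that passed a low-count filter. A gene was called when its adjusted p-value was under 0.05. Of the 57 genes, 40 passed the filter (23 ligands and 17 receptors) and 17 did not. Of those 40, 15 were lower in SHMT2HKO livers, 1 was higher and 24 were not called. The 15 lower genes made up 37.5% of those tested, against 16.5% of all genes tested, and the 1 higher gene made up 2.50%, against 12.5% of all genes. In 19 of the 40 each SHMT2HKO mouse lay below each SHMT2fl/fl mouse (47.5%, against 25.0% of all genes), and in 3 the order was the opposite (7.50%, against 21.9%). The filter favours genes that are high in one genotype, and 12 of the 40 reached its limit in fewer than 3 SHMT2HKO libraries. With every gene that had a count tested, 14 of the 57 were lower (24.6%, against 8.74% of all genes) and 2 were higher (3.51%, against 5.75%).

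Both ligand and receptor genes were among those called lower. Of 23 ligands tested 8 were lower (34.8%), and of 17 receptors 7 were lower (41.2%), while the only higher gene was a ligand, *Ccl24*. The median log2 fold change was -0.47 over the ligands and -0.91 over the receptors, beside 0.027 over all genes tested, whose quartiles were -0.49 and 0.35. The ligand median was -0.27 without SHMT2HKO mouse 1, -0.76 without SHMT2fl/fl mouse 2 and -0.79 without SHMT2HKO mouse 3. Leaving out the genes below the filter's limit in an SHMT2HKO library, these medians were -0.25 over 17 ligands and -0.91 over 11 receptors. No test of ligands against receptors was made, since genes are not replicates. Summed over the 22 receptors, the level was 107 ± 9.57 CPM in SHMT2fl/fl and 45.2 ± 13.6 CPM in SHMT2HKO livers. Summed over the 35 ligands it was 693 ± 32.4 and 518 ± 50.1 CPM, of which *Cxcl12* alone was 55.5% to 58.9% in SHMT2fl/fl and 64.1% to 64.7% in SHMT2HKO livers. Without *Cxcl12* the ligand sums were 295 ± 14.0 and 184.8 ± 18.9 CPM.

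**Figure D1:**
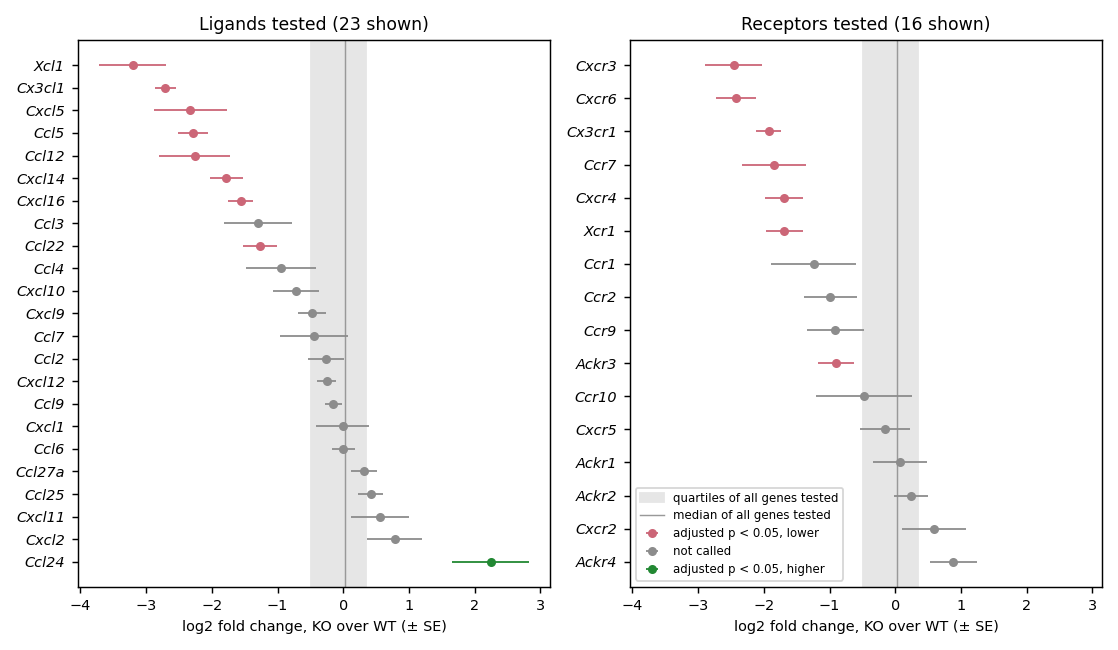
Log2 fold change (SHMT2HKO over SHMT2fl/fl, horizontal axis, bars are SE) of the 23 ligands and 16 of the 17 receptors tested, with the quartiles and the median of all 16089 genes tested as a grey band and line. Called genes are coloured: 8 ligands and 7 receptors lie to the left of the band, down to -3.20 for *Xcl1*, and *Ccl24* alone is called to the right, at 2.24.

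In 3 ligand-receptor pairs, *Cx3cl1* with *Cx3cr1*, *Cxcl16* with *Cxcr6* and *Xcl1* with *Xcr1*, both genes were lower in SHMT2HKO livers. CX3CL1, or fractalkine, is a membrane-anchored chemokine that holds and attracts monocytes and lymphocytes bearing CX3CR1. *Cx3cl1* (ENSMUSG00000031778, chr8:94772009-94782427, GRCm38) was 26.6, 31.6 and 33.9 CPM in the SHMT2fl/fl mice and 5.26, 4.05 and 4.72 CPM in the SHMT2HKO mice. The lowest SHMT2fl/fl mouse was far above the highest SHMT2HKO mouse, and the level was 6.54-fold lower in SHMT2HKO livers (log2 fold change -2.71, SE 0.16, adjusted p = 0.000532). *Cx3cr1* (ENSMUSG00000052336, chr9:119901616-120069879), the receptor, was 41.9, 33.6 and 39.9 CPM in SHMT2fl/fl and 8.06, 9.47 and 12.8 CPM in SHMT2HKO livers. These values did not overlap either, and the receptor was 3.80-fold lower (log2 fold change -1.93, SE 0.19, adjusted p = 0.000912).

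CXCL16 is the other membrane-anchored chemokine and also takes up oxidised lipoproteins. *Cxcl16* (ENSMUSG00000018920, chr11:70453983-70459984) read 51.3, 63.2 and 56.5 CPM in SHMT2fl/fl and 15.5, 17.6 and 24.7 CPM in SHMT2HKO mice, a log2 fold change of -1.56 (SE 0.18, adjusted p = 0.00141). Its receptor gene *Cxcr6* (ENSMUSG00000048521, chr9:123806475-123811760), carried by T and NKT cells that patrol the liver sinusoids, read 2.62, 2.67 and 2.98 CPM and 0.382, 0.608 and 0.551 CPM, a log2 fold change of -2.42 (SE 0.30, adjusted p = 0.00167). Both genes were separated by genotype, and the receptor stood on 9 to 14 counts per SHMT2HKO library. *Cxcr6* reached the filter's limit in 2 SHMT2HKO libraries and in all 3 SHMT2fl/fl libraries, and without a filter its adjusted p-value was 0.000206. XCL1, or lymphotactin, is released by activated CD8 T and NK cells and is read by XCR1 on the dendritic cells that cross-present antigen. *Xcl1* (ENSMUSG00000026573, chr1:164931644-164935527) had 32, 26 and 45 counts in the SHMT2fl/fl and 1, 3 and 3 counts in the SHMT2HKO libraries, and its log2 fold change of -3.20 (SE 0.51, adjusted p = 0.00374) was the lowest of the 40. *Xcl1* passed the filter through the SHMT2fl/fl libraries alone, so its place among the 40 came from the group where it is high. Without a filter its adjusted p-value was 0.00131. *Xcr1* (ENSMUSG00000060509, chr9:123852315-123862029) was 2.64, 2.56 and 2.58 CPM and then 0.637, 0.861 and 0.905 CPM (log2 fold change -1.69, SE 0.28, adjusted p = 0.00422). Whether the counting used strand was not given in the sources used here, and 18.3% of the exon bases of *Cxcl16* (shared with *Zmynd15*), 18.7% of those of *Xcl1* (with *Gm20743*) and 1.73% of those of *Cx3cr1* (with *Gm33858*) overlap a gene on the other strand.

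Of the 35 ligand-receptor pairs set side by side, 23 had both genes tested. Both were lower in these 3 pairs. Of all tested ligands 34.8% were lower and of all tested receptors 41.2%, so some pairs would have both lower without any link between partners. Whether partners went together more often than these shares give was not tested. In 4 pairs the ligand was lower while the receptor was not called, in 5 the receptor was lower while the ligand was not called, and in 11 neither was called. The pairs share genes, as *Cxcr3* enters with 3 ligands and *Cxcl12* with a pair of receptors, so they are not separate observations. Among the ligands of *Cxcr3*, *Cxcl11* is annotated as a polymorphic pseudogene.

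**Figure D2:**
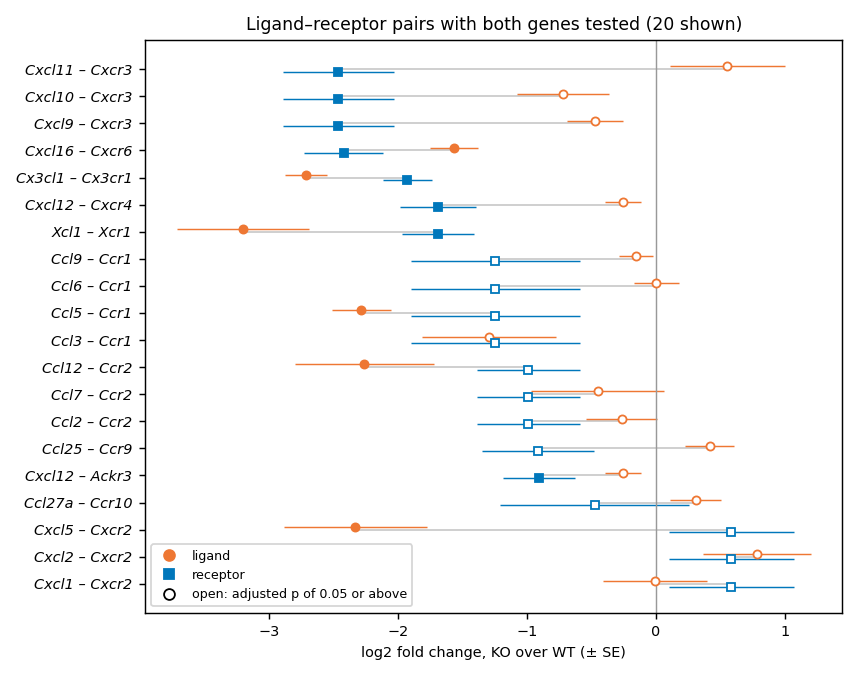
Log2 fold change (SHMT2HKO over SHMT2fl/fl, horizontal axis, bars are SE) of the ligand (circle) and receptor (square) of each of 20 of the 23 pairs with both genes tested. Filled symbols have an adjusted p under 0.05, and both symbols are filled in *Cxcl16*–*Cxcr6*, *Cx3cl1*–*Cx3cr1* and *Xcl1*–*Xcr1*.

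Markers of several leukocyte classes moved beside these genes. For T cells, which carry *Cxcr3*, *Cxcr6* and *Ccl5*, 4 of 5 markers were lower, with summed levels of 15.7 to 18.6 CPM in SHMT2fl/fl and 3.85 to 6.54 CPM in SHMT2HKO livers. For NK cells, a source of *Xcl1*, 2 of 5 were lower (5.87 to 7.34 and 1.57 to 2.38 CPM). For dendritic cells, which carry *Xcr1* and *Ccr7*, 3 of 5 were lower (47.1 to 52.1 and 16.8 to 34.2 CPM). For macrophages it was 4 of 5 (483 to 630.2 and 175 to 285 CPM), for lipid-associated macrophages and monocytes 3 of 5 (226 to 275 and 50.8 to 195 CPM), and for B cells 1 of 5 (11.3 to 13.2 and 3.35 to 7.55 CPM). Among non-leukocytes, all 5 bile duct cell markers were lower (141 to 272 and 23.5 to 32.1 CPM), 3 of 5 stellate cell markers were lower (531 to 594 and 125 to 318 CPM), and 2 of 5 endothelial (132 to 149 and 191 to 219 CPM) and 2 of 5 hepatocyte markers (48166 to 60032 and 63690.2 to 94857 CPM) were higher. Of 5 neutrophil markers 3 were tested and 1 was lower (7.49 to 11.6 and 4.05 to 7.28 CPM), with the defining gene *Ly6g* at 1 count in all libraries together. Each sum leans on its most abundant markers. In the stellate list *Col1a1* was the largest part (382 ± 13.6 and 105 ± 68.0 CPM) and *Lrat* was not called (log2 fold change 0.025). In the endothelial list *Stab2* and *Clec4g* were called higher, while *Pecam1* and *Cdh5*, each at a log2 fold change of -0.24, were not called. In the dendritic cell list *Itgax* had the highest mean (29.1 ± 3.49 and 9.05 ± 6.88 CPM). *Clec9a* and *Zbtb46* of that list (log2 fold changes -0.43 and -0.23) were not called. Of the NK cell markers, *Ncr1*, *Klre1* and *Prf1* (-2.19, -1.53 and 0.25) were not called. *Gpnmb* and *Lgals3* of the lipid-associated macrophage list (-1.15 and -0.75) were not called either. *Csf3r* was the neutrophil marker called lower, with *S100a8* at -0.14 and *S100a9* at 0.21, both not called. No marker of these lists was at 0 in all libraries. Their part in the results on chemokines and receptors was not tested.

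**Figure D3:**
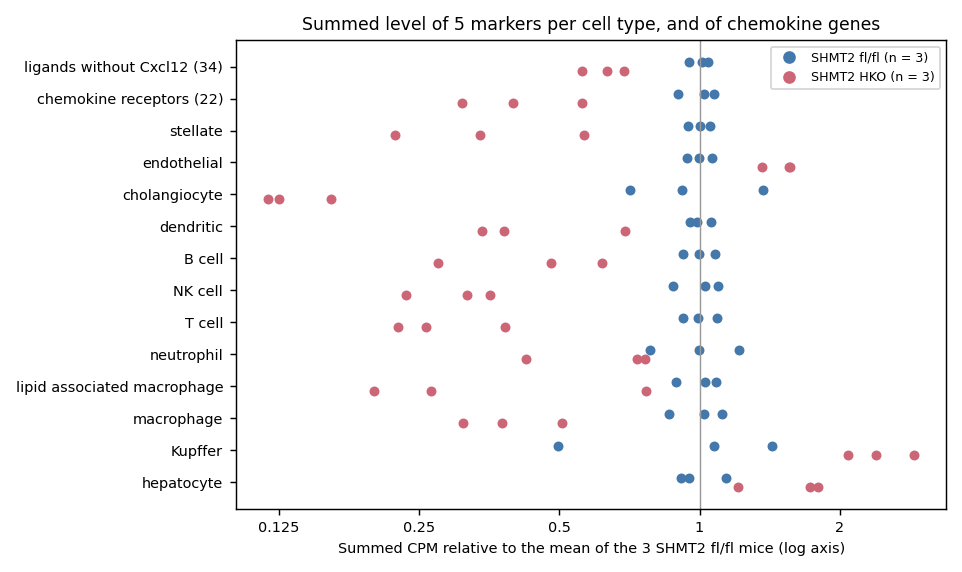
Summed CPM of the 5 markers of each cell type, of the 22 receptors and of the 34 ligands without *Cxcl12*, each relative to the mean of the 3 SHMT2fl/fl mice (horizontal log axis), with 1 point per mouse. The bile duct cell sums of the 3 SHMT2HKO mice lie furthest to the left, and their Kupffer cell sums lie furthest to the right. Each sum leans on the most abundant markers of its list.

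The receptor gene of the interferon-induced chemokines was lower while its ligand genes were not called. CXCR3 marks activated T and NK cells and reads CXCL9, CXCL10 and CXCL11. *Cxcr3* was 3.13, 2.52 and 3.52 CPM in SHMT2fl/fl and 0.382, 0.304 and 0.945 CPM in SHMT2HKO livers (log2 fold change -2.46, SE 0.43, adjusted p = 0.00531). *Cxcr3* stood on 9, 6 and 24 counts in the SHMT2HKO libraries, and only 1 of these reached the filter's limit, against all 3 SHMT2fl/fl libraries. Without a filter its adjusted p-value was 0.000425. The highest SHMT2HKO mouse was mouse 3, and without it the log2 fold change was -3.16 (adjusted p = 0.00116). *Cxcl9* measured 20.1, 17.6 and 18.1 CPM in SHMT2fl/fl and 9.29, 17.5 and 13.5 CPM in SHMT2HKO mice, a log2 fold change of -0.47 (SE 0.22, adjusted p = 0.138). Its genotypes stood next to each other without overlap, and without SHMT2HKO mouse 2 the adjusted p-value was 0.0474 at a log2 fold change of -0.71. *Cxcl10*, at 11.5, 5.64 and 12.0 CPM against 3.57, 7.34 and 6.85 CPM, overlapped between genotypes (log2 fold change -0.72, SE 0.35, adjusted p = 0.164). *Cxcl11*, at 2.50, 1.73 and 2.92 CPM against 3.31, 5.72 and 1.57 CPM, overlapped too (log2 fold change 0.55, SE 0.44, adjusted p = 0.387). The direction of *Cxcl11* turned with scaling to the ERCC spike-in RNAs, and 41.7% of its exon bases overlap *Gm2673* on the other strand. The gene annotation lists *Cxcl11* as a polymorphic pseudogene, so its RNA need not make a working ligand. The 3 ligand genes lie within 44.1 kb of each other on chromosome 5.

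CXCL12, made by stromal and endothelial cells, keeps leukocytes in place through CXCR4, and ACKR3 removes it. *Cxcl12* had the highest level per exon length of the family in both genotypes, 48.6 RPKM (CPM per kilobase of exon) in SHMT2fl/fl and 40.8 RPKM in SHMT2HKO livers, ahead of *Ccl9* at 24.3 and 21.9 RPKM. On the CPM scale *Cxcl12* was 428, 383 and 382 in the SHMT2fl/fl and 303, 365 and 333 in the SHMT2HKO mice. These did not overlap, but the log2 fold change of -0.25 (SE 0.14) did not pass the test (adjusted p = 0.213). Without TMM, where the median over all genes shifted by -0.42, *Cxcl12* was called lower (adjusted p = 0.0105). Both of its receptors passed the main test. *Cxcr4* was 13.7, 11.8 and 9.66 CPM in SHMT2fl/fl against 2.29, 3.39 and 5.16 CPM in SHMT2HKO livers (log2 fold change -1.69, SE 0.29, adjusted p = 0.00513). *Ackr3* was 2.42, 2.45 and 3.39 CPM against 1.49, 1.22 and 1.69 CPM (log2 fold change -0.91, SE 0.28, adjusted p = 0.0409). The call on *Ackr3* was lost under more alternatives than that on any other of the 16 called genes. Its adjusted p-value was 0.0819, 0.0813 and 0.175 without SHMT2fl/fl mouse 1, 2 or 3, and 0.0544 and 0.112 without SHMT2HKO mouse 1 or 2.

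CXCL14, a chemokine of epithelia and fibroblasts with no receptor settled on, was among the more abundant ligands. *Cxcl14* was 41.3, 21.0 and 37.7 CPM in SHMT2fl/fl mice and 8.53, 9.77 and 10.8 CPM in SHMT2HKO mice. SHMT2fl/fl mouse 2 was the low one of its group and still lay well above the SHMT2HKO mice (log2 fold change -1.78, SE 0.25, adjusted p = 0.00243).

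**Figure D4:**
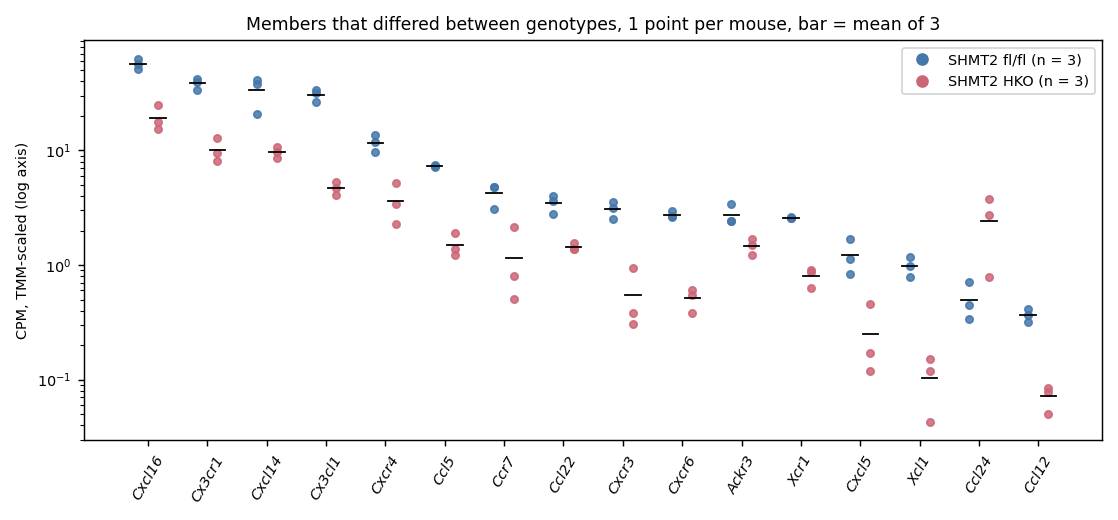
Level of the 16 genes that differed between genotypes (CPM, TMM-scaled, log axis), with 1 point per mouse and a bar at the mean of 3. The SHMT2HKO points lie below the SHMT2fl/fl points in 15 genes, and above them in *Ccl24*, where the lowest SHMT2HKO mouse (0.787 CPM) is close to the highest SHMT2fl/fl mouse (0.709 CPM).

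Of 12 CC ligand genes tested, 3 were lower, *Ccl5*, *Ccl22* and *Ccl12*, and 1 was higher. CCL5, or RANTES, is stored and released by T and NK cells and attracts cells with CCR1 and other CC receptors. *Ccl5* was 7.44, 7.37 and 7.18 CPM in the SHMT2fl/fl mice and 1.23, 1.37 and 1.89 CPM in the SHMT2HKO mice, 4.87-fold lower (log2 fold change -2.28, SE 0.23, adjusted p = 0.000943). *Ccl22*, the dendritic cell and macrophage chemokine that attracts regulatory T cells through CCR4, fell from 2.79, 4.03 and 3.60 CPM to 1.57, 1.37 and 1.38 CPM (log2 fold change -1.27, SE 0.26, adjusted p = 0.00897). *Ccl12*, a monocyte chemokine that CCR2 reads, stood on 13, 11 and 14 counts in the SHMT2fl/fl libraries and 2, 1 and 2 counts in the SHMT2HKO libraries (log2 fold change -2.26, SE 0.54, adjusted p = 0.0169). It passed the filter through the SHMT2fl/fl libraries alone. Its call was lost without SHMT2fl/fl mouse 2 (adjusted p = 0.0618) or mouse 3 (adjusted p = 0.0599), without a filter (adjusted p = 0.0602), with DESeq2 (adjusted p = 0.058) and with the replicate block (adjusted p = 0.0537).

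The monocyte chemokine gene *Ccl2*, measured by the study also by qRT-PCR, was 3.35, 6.06 and 4.46 CPM in SHMT2fl/fl and 3.01, 3.95 and 4.53 CPM in SHMT2HKO livers. By qRT-PCR the study reported that diet-raised inflammatory genes were significantly reduced by the deletion, and its primer list includes *Ccl2*. In the RNA-seq counts *Ccl2* overlapped between genotypes and was not called (log2 fold change -0.27, SE 0.28, adjusted p = 0.510). *Ccl6* and *Ccl9*, mouse chemokines of myeloid cells that CCR1 reads, were also not called. *Ccl6* was 21.8, 20.0 and 20.2 CPM against 15.9, 20.8 and 25.4 CPM (log2 fold change 0.0029, SE 0.17, adjusted p = 0.992). *Ccl9* was 78.2, 74.5 and 69.6 CPM against 60.1, 77.4 and 62.5 CPM (log2 fold change -0.15, SE 0.13, adjusted p = 0.420). Thus in the 138.9 kb stretch of chromosome 11 that holds *Ccl5*, *Ccl9*, *Ccl6*, *Ccl3* and *Ccl4*, 1 of the 5 genes was called.

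The receptor genes *Ccr2* and *Ccr1* were not called by the edgeR test with all 6 mice and were called without SHMT2HKO mouse 3. CCR2 brings inflammatory monocytes out of the bone marrow, and CCR1 guides monocytes and macrophages. *Ccr2* was 14.0, 13.9 and 15.8 CPM in the SHMT2fl/fl mice and 3.27, 6.38 and 12.3 CPM in the SHMT2HKO mice, where SHMT2HKO mouse 3 almost reached the SHMT2fl/fl range (log2 fold change -0.99, SE 0.40, adjusted p = 0.100). Without that mouse the log2 fold change was -1.63 (adjusted p = 0.00478). *Ccr1* was 1.13, 2.56 and 2.45 CPM against 0.170, 0.810 and 1.57 CPM (log2 fold change -1.24, SE 0.65, adjusted p = 0.190). Without SHMT2HKO mouse 3 its log2 fold change was -2.11 (adjusted p = 0.0493). With DESeq2 and all mice, the adjusted p-value of *Ccr2* was 0.0455. The ligand gene *Ccl3* went the same way, from an adjusted p of 0.0962 with all mice to 0.0192 without SHMT2HKO mouse 3. SHMT2HKO mouse 3 was the highest of its group in 9 of the 15 genes called lower, and SHMT2HKO mouse 1 the lowest in 9. These ranks were not counted over all genes, where SHMT2HKO mouse 3 lay nearest the SHMT2fl/fl mice on the first principal component. Without SHMT2HKO mouse 3 the number called lower was 19, and over all 6 ways of leaving out a mouse it ranged from 11 to 19. Of all 16089 genes tested, 3069 were called lower without SHMT2HKO mouse 3, against 2651 with all mice. Over the 6 ways this number ranged from 1627 to 3069.

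CCR7 leads mature dendritic cells and naive T cells to lymph nodes. *Ccr7* was 4.77, 4.82 and 3.11 CPM in SHMT2fl/fl and 0.509, 0.810 and 2.16 CPM in SHMT2HKO livers, without overlap although SHMT2HKO mouse 3 was again the high one (log2 fold change -1.84, SE 0.49, adjusted p = 0.0255). The log2 fold change was -2.71 without it (adjusted p = 0.00209). The adjusted p-value rose to 0.0848, 0.0792 and 0.0512 without SHMT2fl/fl mouse 1, 2 or 3, and to 0.0856 without SHMT2HKO mouse 2.

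Of the 3 neutrophil-attracting ligand genes tested, whose products CXCR2 reads, 1 was lower. *Cxcl5*, made by epithelial cells, was 1.69, 0.828 and 1.12 CPM in SHMT2fl/fl and 0.170, 0.456 and 0.118 CPM in SHMT2HKO livers (log2 fold change -2.33, SE 0.55, adjusted p = 0.0167). It had 4, 9 and 3 counts in the SHMT2HKO libraries, and the adjusted p-value was 0.0686 without SHMT2fl/fl mouse 1 and 0.0524 without SHMT2fl/fl mouse 3. Without SHMT2HKO mouse 2 its log2 fold change was -3.06. *Cxcl5* reached the filter's limit in 1 SHMT2HKO library and in all 3 SHMT2fl/fl libraries, and without a filter its adjusted p-value was 0.00875. *Cxcl1*, the classical neutrophil attractant of injured liver, was 7.17, 5.79 and 18.1 CPM and 12.3, 9.93 and 8.82 CPM, where SHMT2fl/fl mouse 3 was the highest of all 6 and the means were 10.4 ± 6.76 and 10.4 ± 1.78 CPM (log2 fold change -0.0070, SE 0.41, adjusted p = 0.992). *Cxcr2* itself, on 15, 8 and 26 counts and 16, 8 and 24 counts, overlapped between genotypes (log2 fold change 0.59, SE 0.48, adjusted p = 0.403). The atypical receptor gene *Ackr2*, whose product clears inflammatory CC chemokines, was 3.25, 2.37 and 2.69 CPM and 3.18, 4.00 and 2.64 CPM (log2 fold change 0.23, SE 0.26, adjusted p = 0.531). Under ERCC scaling the log2 fold changes of *Cxcr2* and *Ackr2* were below 0.

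*Ccl24* was the 1 gene called higher. CCL24, or eotaxin-2, is made by alternatively activated macrophages and attracts eosinophils through CCR3. *Ccl24* was 0.709, 0.339 and 0.444 CPM in the SHMT2fl/fl mice and 2.72, 3.75 and 0.787 CPM in the SHMT2HKO mice, so SHMT2HKO mice 1 and 2 stood far above and mouse 3 barely above the SHMT2fl/fl range (log2 fold change 2.24, SE 0.58, adjusted p = 0.0230). The adjusted p-value was 0.0801 without SHMT2fl/fl mouse 2, 0.0856 without SHMT2fl/fl mouse 3 and 0.0797 without SHMT2HKO mouse 2. Of 5 Kupffer cell markers (the resident macrophages of the liver), 3 rose, *Clec4f*, *Vsig4* and *Timd4*, with a summed level of the 5 of 57.6 to 166 CPM in SHMT2fl/fl and 241 to 335 CPM in SHMT2HKO livers. None of the 5 was at 0, and their part in the *Ccl24* result was not tested.

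The other genes tested, given by their ranges, were not called. These were the ligand genes *Ccl3*, *Ccl4*, *Ccl7*, *Ccl25*, *Ccl27a* and *Cxcl2* and the receptor genes *Ackr1*, *Ackr4*, *Ccr9*, *Ccr10* and *Cxcr5*. Their log2 fold changes ran from -1.29 for *Ccl3* to 0.88 for *Ackr4*, which clears the homeostatic ligands of CCR7 and CCR9. The following were picked after their values were seen. *Ackr4* and *Ccl25*, a ligand of both ACKR4 and CCR9, were higher in every SHMT2HKO mouse than in any SHMT2fl/fl mouse, with log2 fold changes of 0.88 (adjusted p = 0.101) and 0.42 (adjusted p = 0.133), and *Ccr9* was lower in every SHMT2HKO mouse, at -0.91 (adjusted p = 0.152). The log2 fold change of *Ccl25* was -0.32 under ERCC scaling and -0.0086 without TMM. *Ccl27a* and *Ccl27b* are near-identical copies, and reads shared by such genes were left out, so both may be counted too low.

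Of the 17 genes below the filter, several held most of their counts in 1 genotype. The following genes were singled out after their counts were seen. *Ccl20*, which draws CCR6-bearing lymphocytes to epithelia, had 14, 13 and 11 counts in the SHMT2fl/fl and 0, 0 and 0 in the SHMT2HKO libraries. Set against a floor of 3 counts over the group it was at least 8.23-fold lower in SHMT2HKO livers (adjusted p = 0.00262 when all genes with a count were tested). *Cxcl13*, the B cell attractant that CXCR5 reads, went the other way, with 2, 1 and 2 counts in SHMT2fl/fl and 13, 17 and 8 counts in SHMT2HKO libraries. The ratio was 11.7 (counting interval 4.60 to 38.1, counting error only), and the adjusted p-value was 0.00439 with all genes tested.

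*Ccl8*, a further CC chemokine of macrophages, had 3, 6 and 19 counts against 2, 0 and 0, with the 2 counts in SHMT2HKO mouse 1. *Ccl17* and *Ccl19*, ligands of CCR4 and CCR7, had 8, 19 and 9 and 9, 17 and 11 counts in the SHMT2fl/fl libraries and 1, 2 and 3 and 2, 3 and 3 in the SHMT2HKO libraries. *Ccr4* had 7, 2 and 2 counts in the SHMT2fl/fl libraries and none in the SHMT2HKO libraries. For these 4 genes the adjusted p-value with all genes tested was 0.0943, 0.120, 0.184 and 0.122. The other 11 (*Ccl1*, *Ccl11*, *Ccl27b*, *Ccl28*, *Cxcl3*, *Cxcl15*, *Cxcl17*, *Ccr3*, *Ccr6*, *Ccr8* and *Cxcr1*) had at most 25 counts in a library, where 3 counts stand for 0.0734 to 0.152 CPM, and none of them had an adjusted p-value under 0.295 with all genes tested.

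**Figure D5:**
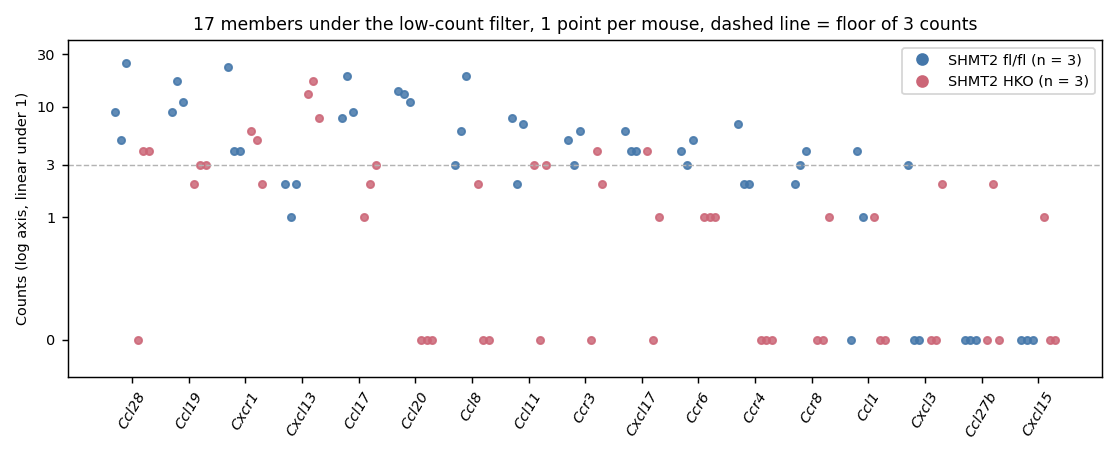
Counts per library of the 17 genes below the low-count filter (vertical log axis, linear under 1), with 1 point per mouse and a dashed line at the floor of 3 counts. *Ccl20* has 11 to 14 counts in SHMT2fl/fl and 0 in SHMT2HKO libraries, and *Cxcl13* has 1 or 2 counts in SHMT2fl/fl and 8 to 17 in SHMT2HKO libraries.

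Promoter sequences were compared by the letters they hold. RefSeq promoter windows of GRCm38.p6, from 250 bases before to 50 after the gene start, were matched by symbol for 43 of the 57 genes, 11 of them called lower. Windows were searched on both strands for the NF-κB consensus, for the interferon-stimulated element GAAANNGAAA and for TATAAA. The NF-κB consensus was in 10 of 43 windows (23.3%, against 5.14% of 27025 genes), namely *Ackr2*, *Ccl9*, *Ccl20*, *Ccl27a*, *Ccr3*, *Ccr6*, *Cxcl1*, *Cxcl2*, *Cxcl3* and *Cxcl10*. None of the 11 genes called lower held it, beside 6 of the 17 tested and not called and 4 of the 15 below the filter. Motif and call were not tested against each other. GAAANNGAAA was in 3 windows (6.98%, against 3.99%), those of *Ccl19*, *Cxcl10* and *Cxcl14*, and TATAAA in 14 (32.6%, against 15.7%), 5 of them of genes called lower. A match describes the letters only. The 250 bases before the start are shown for *Cx3cl1*, the called ligand with the smallest adjusted p-value, and for *Cxcl1*, *Cxcl2* and *Cxcl10*, which were not called, 5′ to 3′ on the strand of the gene. Capitals mark TATAAA in *Cx3cl1* (chr8:94771930-94772179, plus strand), the NF-κB consensus in *Cxcl1* (chr5:90890995-90891244, plus strand) and *Cxcl2* (chr5:90903649-90903898, plus strand), where matches on both strands overlap by all but 1 base, and GAAANNGAAA followed by a pair of NF-κB matches in *Cxcl10* (chr5:92348890-92349139, minus strand), where these motifs do not overlap each other.
Cx3cl1: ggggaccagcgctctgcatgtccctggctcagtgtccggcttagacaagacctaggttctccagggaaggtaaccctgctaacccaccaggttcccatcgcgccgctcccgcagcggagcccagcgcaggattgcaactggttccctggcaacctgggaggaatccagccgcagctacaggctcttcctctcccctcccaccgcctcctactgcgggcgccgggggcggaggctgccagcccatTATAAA
Cxcl1: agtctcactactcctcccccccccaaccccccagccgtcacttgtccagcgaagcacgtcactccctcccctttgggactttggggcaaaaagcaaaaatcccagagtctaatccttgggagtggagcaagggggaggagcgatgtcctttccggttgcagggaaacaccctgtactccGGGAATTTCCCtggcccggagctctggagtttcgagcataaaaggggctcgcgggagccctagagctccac
Cxcl2: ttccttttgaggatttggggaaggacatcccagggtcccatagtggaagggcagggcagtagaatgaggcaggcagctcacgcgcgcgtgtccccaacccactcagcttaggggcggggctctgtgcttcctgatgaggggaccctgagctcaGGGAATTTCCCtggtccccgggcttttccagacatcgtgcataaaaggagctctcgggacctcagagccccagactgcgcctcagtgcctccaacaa
Cxcl10: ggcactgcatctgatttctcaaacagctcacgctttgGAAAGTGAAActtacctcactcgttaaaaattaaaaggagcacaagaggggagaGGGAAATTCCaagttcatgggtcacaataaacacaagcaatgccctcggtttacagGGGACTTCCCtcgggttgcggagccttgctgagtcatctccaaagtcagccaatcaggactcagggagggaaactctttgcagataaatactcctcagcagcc
In *Cx3cl1* TATAAA begins 6 bases before the RefSeq start. That start lies 171 bases inside the gene as GENCODE places it (from 94772009), so the motif is upstream of one annotated start and downstream of the other. The nearest NF-κB match on the strand of the gene begins 71 bases before the RefSeq start in *Cxcl1*, 97 in *Cxcl2* and 103 in *Cxcl10*, whose RefSeq starts lie 4, 28 and 0 bases downstream of the GENCODE gene start.

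On the chromosomes, 6 dense groups of genes hold 29 of the 57, counting runs of 3 or more whose starts are under 500 kb apart. In the 66.4 kb on chromosome 8 (94745590 to 94812036) that hold *Ccl22*, *Cx3cl1* and *Ccl17*, both genes tested were lower. On chromosome 9, the receptor genes *Cxcr6* and *Xcr1* were lower, while *Ccr9*, *Ccr1* and *Ccr2* near them were not called. The monocyte chemokine run on chromosome 11 (82035571 to 82305690) had 1 of 3 lower, *Ccl12*, and the run on chromosome 5 with *Cxcl5*, *Cxcl3*, *Cxcl15*, *Cxcl1* and *Cxcl2* (90759360 to 90905938) had 1 of 3 lower, *Cxcl5*.

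Genes that carry chemokine signals inside the cell, process chemokines or encode related ligands and receptors were fixed as a list of 50. Of the 47 tested, 21 were lower and 1 was higher, with a median log2 fold change of -0.50, beside 16.5% lower, 12.5% higher and a median of 0.027 over all 16089 genes tested. The lower genes were 18 of 34 signalling genes and 3 of 6 related ligand and receptor genes, and none of 7 processing genes was lower. Among the lowest were *Pik3cg*, the leukocyte PI3-kinase that G protein-coupled receptors switch on (log2 fold change -1.49, adjusted p = 0.00853) and *Pf4*, the platelet chemokine CXCL4 (log2 fold change -1.45, adjusted p = 0.0112). The higher gene was *Dpp4*, a protease that trims the amino end of several chemokines (63.0 ± 2.34 CPM in SHMT2fl/fl and 115 ± 12.5 CPM in SHMT2HKO livers, log2 fold change 0.86, adjusted p = 0.00253). Without SHMT2fl/fl mouse 3 the number of lower genes was 9, and without SHMT2HKO mouse 2 it was 13. Of all genes tested, 1627 and 1916 were lower in these fits, against 2651 with all mice.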

How the data were processed

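RNA of 6 whole livers (3 SHMT2fl/fl and 3 SHMT2HKO, grouped by their labels) was sequenced in paired ends. The authors deposited raw gene counts without normalization, made from unique hits, so reads shared by near-identical genes are left out. The submitters' processing notes name Trimmomatic 0.36, STAR 2.5.2b and featureCounts of Subread 1.5.2 with GRCm38. Whether strand was used is not given in the sources used here. Ensembl IDs were given GENCODE symbols (345 of 49671 had none, with 0.0416% of gene counts), and 92 ERCC rows were left out of tests. The labels number the livers but do not say how they were sampled. Each was taken as 1 mouse, and p-values measure the spread between these samples, which may in part be technical.

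Genes were filtered with filterByExpr (minimum count 10), scaled by TMM, and compared between genotypes with the two-sided quasi-likelihood F test of edgeR 4.0.16 in R 4.3.3, which was checked on simulated counts. CPM use TMM-scaled library sizes, and RPKM divide CPM by the length of all annotated exons of a gene. Same-numbered mice did not deviate together (correlations -0.0187, 0.0737 and -0.114), so the fit has no replicate block. Alternatives were DESeq2 1.42.0, limma 3.58.1 (voom), other scalings and filters, the cutoff in the methods of the study, and leaving out each mouse.

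Values per mouse are given for genes with an adjusted p under 0.05, for the 8 ligands and 6 receptors of highest mean CPM, for tested partners of called genes and for *Ccl2*. The genes and lists were chosen with earlier results of these data known. Intervals and floors cover counting error only. Some genes that enter the counts and sums are not reported here by name. Other diets and assays of the study were not analysed here.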

Additional observations from a re-analysis of the deposited data

How the results depend on the processing

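Of the 15 genes called lower, 11 stayed called under every alternative that tested them, and *Shmt2* was lower under all. Of 485 values of the 29 genes chosen by the rule for values per mouse, 424 kept their direction and side of the threshold, 24 lost and 15 gained a call, and 22 changed sign, each of these in a gene that was not called. Calls were lost for *Ackr3*, *Ccl12*, *Ccl24*, *Ccr7* and *Cxcl5*, and the cause was not tested. Genes that gained a lower call without TMM included *Cxcl12* (adjusted p = 0.0105), *Ccl9* (adjusted p = 0.0166) and *Cxcl9* (adjusted p = 0.0236).

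The call on *Ccl24* was lost with limma-voom (adjusted p = 0.0587) and with ERCC scaling (adjusted p = 0.202). The number of genes called higher, and of ligands called higher, was 0 with limma-voom, with ERCC scaling and with at least 10 counts in every sample, where 5 ligands were lower. Without a filter both numbers were 2. With the cutoff of the study's methods, 18 genes were lower and 2 were higher, 1 of these a receptor. At this cutoff 3511 of all genes tested were lower and 3143 were higher. Leaving out each mouse gave 0 to 1 higher genes, beside 806 to 2511 of all genes tested, and 0 to 1 higher ligands. The median log2 fold change of the ligands was -0.90 without TMM, -1.17 with ERCC scaling and -0.86 without a filter, and that of the receptors was -1.60 with ERCC scaling. The median over all genes shifted by -0.42 without TMM and by -0.72 with ERCC scaling, and the share of all calls that were lower rose from 56.9% to 90.1% and 96.3% (67.5% with upper-quartile scaling). Of the other genes of the pathway, leaving out each mouse gave 9 to 27 lower, beside 1627 to 3069 of all genes tested. The number of pathway genes higher was 2 with DESeq2, without a filter and with the study's cutoff, and 0 without TMM and with ERCC scaling.

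The log2 fold change of *Ackr2* was -0.21 without TMM and -0.58 with ERCC scaling, that of *Cxcl11* -0.41 and that of *Cxcr2* -0.069 with ERCC scaling. *Ccl6* was at -0.021 with limma-voom, -0.40 without TMM, -0.088 with upper-quartile scaling, -0.61 with ERCC scaling, -0.018 without a filter, -0.039 with at least 10 counts and -0.020 with the replicate block. *Cxcl1* was at 0.0053 with DESeq2, 0.13 with limma-voom, 0.0025 with RLE size factors and 0.17 with the replicate block. Leaving out each mouse gave -0.20 to 0.16 for *Ccl6* and -0.29 to 0.67 for *Cxcl1*. With the replicate block 14 genes were lower and 1 was higher, beside 2187 and 1397 of all genes tested. With this block the calls on *Ackr3* (adjusted p = 0.0736) and *Ccl12* (adjusted p = 0.0537) were lost and *Ccr2* was called (adjusted p = 0.0491).

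Depth limits the 17 genes below the filter and 13 tested genes with a library under 10 counts.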
